A study of Mus musculus with 15 samples.

Results

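The unfolded protein response and the integrated stress response were followed here through 40 listed genes, chosen by symbol among the 24490 genes of the deposited count tables, and all 40 were found and passed the filter on low counts. By role, 16 are chaperones and oxidative folding enzymes of the endoplasmic reticulum (ER), 7 act in ER-associated degradation, 4 are stress sensors or their transcription factors, and 13 belong to the arm downstream of Atf4 and Ddit3. The comparison of interest sets the 23 chaperone and degradation genes against the 13 genes of the Atf4 and Ddit3 arm.

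As background, unfolded protein in the ER lumen is sensed by the membrane proteins encoded by Ern1, Atf6 and Eif2ak3. Ern1 and Atf6 act through the transcription factors XBP1 and ATF6 on genes of folding and degradation, whereas Eif2ak3 phosphorylates eIF2alpha, as the other kinases of the integrated stress response do, which lowers general translation and favours translation of Atf4 and of its target Ddit3. Granulosa cells, the somatic cells around the oocyte, secrete hormones and glycoproteins and so carry a large folding apparatus. Counts per gene show neither the splicing of Xbp1 nor the translation of Atf4, which are the steps at which those genes are mainly controlled.

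Primary ovarian granulosa cells of 8-week-old RjOrl:SWISS female mice were transfected with siRNA, and their mRNA was read in 15 libraries, 3 for each of 5 groups. The groups were scrambled siRNA at 30 h, scrambled siRNA at 54 h, Foxl2 siRNA at 30 h, Foxl2 siRNA at 54 h and Esr2 siRNA at 30 h after transfection. Foxl2 encodes a forkhead transcription factor that maintains granulosa cell identity, and Esr2 encodes oestrogen receptor beta. Every group, controls included, received 30 pmol of siRNA with the lipid reagent Lipofectamine RNAiMax, and no library of untransfected cells was analysed here. Each target was hit with pools of 3 siRNAs; 4 pools are named per target, the labels give both targets the same catalogue numbers, and the pool of a given library is not stated. The times come from the sample titles, since the extraction protocol mentions 30 h alone. Nothing in the labels ties replicates to separate cultures or animals, and p-values therefore measure only how far these libraries spread, which may be a technical spread.

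Each library held between 44976872 and 59550065 gene counts. Levels are in CPM, a count as a share of the library total after TMM scaling, in the order of replicates 1, 2 and 3, and changes are log2 fold changes ± standard errors. A gene was called higher or lower at an adjusted p under 0.05 in edgeR's two-sided quasi-likelihood test over the 14907 genes tested, and adjusted p-values below are from that test unless another tool is named. Foxl2 itself went from 174, 152 and 143 CPM in the scrambled libraries to 33.8, 28.4 and 65.4 CPM in its knockdown at 30 h, and from 189, 154 and 166 CPM to 33.6, 57.5 and 25.2 CPM at 54 h (log2 change -1.88 ± 0.31, adjusted p = 0.00164 and log2 change -2.13 ± 0.31, adjusted p = 0.000191). Replicate 3 at 30 h and replicate 2 at 54 h thus kept the most Foxl2. Esr2 fell from 60.6, 60.4 and 61.6 CPM to 12.9, 14.5 and 13.9 CPM with its own siRNA, and stood at 29.2, 25 and 45.5 CPM with Foxl2 siRNA at 30 h and 18.0, 49.3 and 15.7 CPM at 54 h, where it was called lower (log2 change -1.31 ± 0.34, adjusted p = 0.00854). Conversely Foxl2 stood at 112, 128 and 114 CPM with Esr2 siRNA, below every scrambled library at 30 h, and was not called (log2 change -0.41 ± 0.29, adjusted p = 0.539). The 14 granulosa markers were detected in every group, with summed levels of 3141 to 4597 CPM, against 3.22 to 7.08 CPM for 8 leukocyte markers, 2.72 to 14.2 CPM for 6 endothelial markers and 1.26 to 4.94 CPM for 8 oocyte markers, among them Dppa3, at a count of 0 in all libraries of every group. The 8 theca and stroma markers summed to 171 to 826 CPM.

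Because the 2 arms are known to be driven through different DNA elements, the promoters of the members were searched for them. RefSeq promoter windows (build GRCm38.p6, 250 bases before to 50 bases after the start) matched 35 of the 40 members by symbol, all but Hyou1, Manf, Derl1, Atf6 and Ppp1r15b. The ER stress element, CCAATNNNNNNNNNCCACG on either strand, was found in 8 of 14 chaperone and folding genes, in 2 of 6 degradation genes, in 0 of 3 sensors and in 0 of 12 genes of the Atf4 and Ddit3 arm, against 0.119% of all 32851 promoter windows. Its shorter relative, ER stress element II, which is ATTGG and CCACG with any 1 base between, stood in Dnajb11 and Herpud1 and in 0.0365% of all windows. The binding core of ATF6 and XBP1, TGACGTG, stood in Hspa5 alone among the members and in 2.01% of all windows. These matches are letters in a window and not measured binding sites. They are shown to let the elements be compared between genes, each read in the orientation of the element, with the element in capitals and 6 bases on either side.

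Hspa5, chr2:34772019-34772049, plus strand: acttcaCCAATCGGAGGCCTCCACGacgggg
Hsp90b1, chr10:86705632-86705662, minus strand: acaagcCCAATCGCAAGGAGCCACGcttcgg
Hsp90b1, chr10:86705527-86705557, plus strand: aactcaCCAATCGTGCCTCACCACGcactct
Calr, chr8:84847069-84847099, plus strand: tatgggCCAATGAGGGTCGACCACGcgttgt
Canx, chr11:50325794-50325824, minus strand: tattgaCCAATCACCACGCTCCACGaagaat
Pdia6, chr12:17266485-17266515, plus strand: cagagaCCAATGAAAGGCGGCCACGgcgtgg
Dnajc3, chr14:118937821-118937851, plus strand: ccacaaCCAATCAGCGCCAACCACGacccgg
Creld2, chr15:88819514-88819544, minus strand: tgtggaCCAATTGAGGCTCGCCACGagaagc
Ero1lb, chr13:12565676-12565706, minus strand: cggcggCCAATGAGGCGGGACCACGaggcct
Syvn1, chr19:6046526-6046556, plus strand: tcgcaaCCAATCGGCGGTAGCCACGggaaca
Derl3, chr10:75893236-75893266, minus strand: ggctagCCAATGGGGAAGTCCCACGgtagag
Dnajb11, chr16:22857846-22857868, plus strand: gcggcgATTGGCCCACGcctggc
Herpud1, chr8:94386371-94386393, plus strand: gcgctgATTGGGCCACGttggac

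The Hsp90b1 window held 2 matches, and the other genes 1 each. Between the fixed ends of the ER stress element, the 9 free bases differed in every match.

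For the other arm the C/EBP-ATF element, TGATGNAA on either strand, which is bound by dimers of ATF4 with C/EBP proteins, was searched. It stood in 5 of 12 arm genes, in Herpud1 among the degradation genes, in 0 of 14 chaperone genes and in 3.97% of all windows. Herpud1 alone held an element of each kind, and no matches overlapped.

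Herpud1, chr8:94386311-94386330, minus strand: gcgggcTGATGCAAcccgcc
Atf3, chr1:191183430-191183449, plus strand: acttggTGATGCAAgtgcga
Trib3, chr2:152344033-152344052, plus strand: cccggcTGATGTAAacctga
Chac1, chr2:119351043-119351062, minus strand: caggagTGATGCAAcggcag
Asns, chr6:7693219-7693238, minus strand: gccacaTGATGAAActtccc
Nupr1, chr7:126625567-126625586, plus strand: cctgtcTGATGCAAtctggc

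The 250 bases before the start of Hspa5, Atf3 and Nupr1 are given because Hspa5 is the reference gene of the chaperone group and Atf3 and Nupr1 had the largest changes in the data described below. Capitals mark the matches, and each is read in the direction of the gene. The starts are those of RefSeq. The gene coordinates given below are from GENCODE and begin farther upstream for Hspa5, Atf3 and Nupr1. Windows at the GENCODE starts were not searched.

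Hspa5, chr2:34771840-34772089, plus strand: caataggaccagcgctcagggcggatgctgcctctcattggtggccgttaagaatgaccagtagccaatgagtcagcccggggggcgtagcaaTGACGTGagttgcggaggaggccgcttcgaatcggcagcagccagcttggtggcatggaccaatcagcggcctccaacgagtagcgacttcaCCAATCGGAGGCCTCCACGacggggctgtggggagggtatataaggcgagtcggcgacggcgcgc
Atf3, chr1:191183334-191183583, minus strand: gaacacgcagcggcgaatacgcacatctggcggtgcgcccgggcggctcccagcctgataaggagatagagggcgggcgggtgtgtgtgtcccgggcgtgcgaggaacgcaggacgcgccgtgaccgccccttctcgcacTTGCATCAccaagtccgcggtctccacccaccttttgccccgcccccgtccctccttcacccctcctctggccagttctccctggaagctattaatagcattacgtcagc
Nupr1, chr7:126625471-126625720, minus strand: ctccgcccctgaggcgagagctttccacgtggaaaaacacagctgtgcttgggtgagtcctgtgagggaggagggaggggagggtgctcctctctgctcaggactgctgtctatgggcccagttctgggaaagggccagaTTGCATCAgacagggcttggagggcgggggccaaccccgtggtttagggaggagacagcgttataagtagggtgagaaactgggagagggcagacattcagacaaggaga

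**Figure D1:**
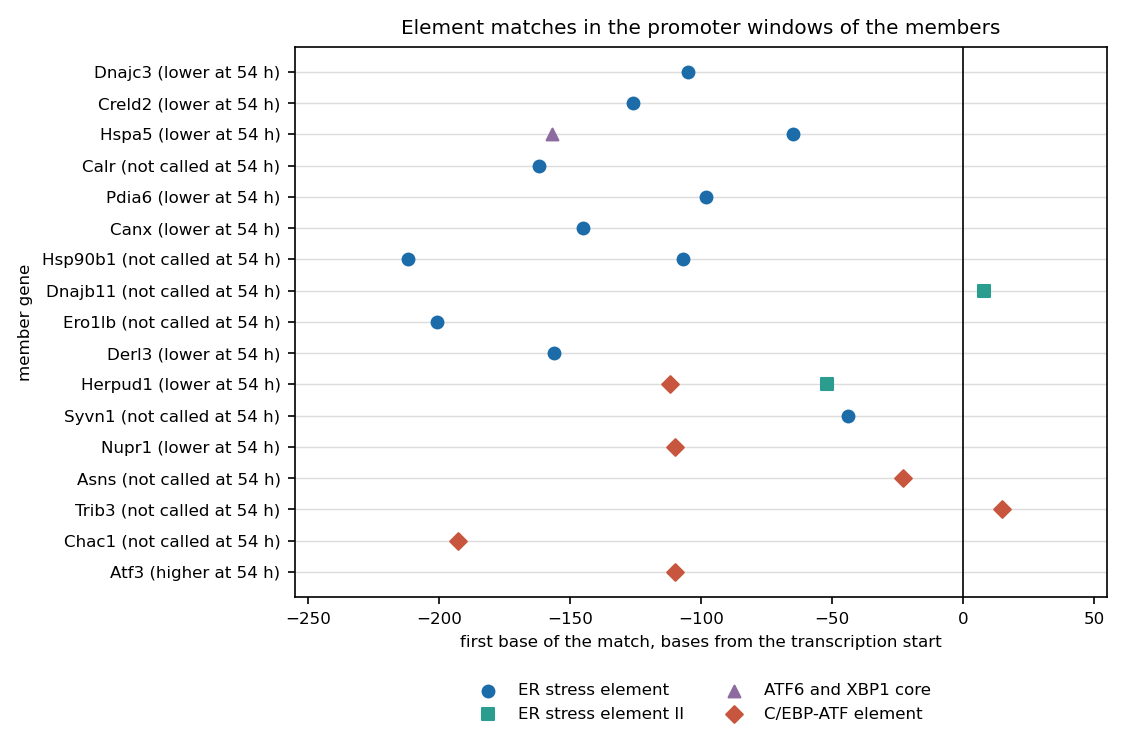
Positions of the element matches in the promoter windows of the members that held any; the x axis is the distance in bases of the first base of a match from the transcription start, rows are genes with their call after Foxl2 siRNA at 54 h, and colours and shapes are the 4 elements. ER stress elements lie in chaperone and degradation genes and C/EBP-ATF elements in arm genes and Herpud1.

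In scrambled libraries at 30 h the abundant members were lumenal chaperones. Per kilobase of exon, Calr, a lectin-like chaperone, stood at 392 (range 384 to 404) CPM and Hspa5, the ER's Hsp70 chaperone BiP, at 391 (range 389 to 395) CPM, with ranges that overlapped. Hsp90b1, the ER's Hsp90, followed at 369 (range 361 to 379) CPM per kilobase and Pdia3, a disulfide isomerase for glycoproteins, at 334 (range 327 to 339). Canx, the membrane-bound lectin chaperone, stood at 170.5 (range 166 to 175) CPM per kilobase. Atf4 led its arm at 129 (range 121 to 136) CPM per kilobase, in a range shared with Pdia4 at 127 (range 124 to 130.2). Nupr1, a small stress-induced chromatin protein, stood at 84.4 (range 69.0 to 98.2), while Ddit3 and Atf3 were near the bottom of the 40, at 9.87 (range 9.34 to 10.3) and 1.28 (range 1.08 to 1.41) CPM per kilobase. Between them, Manf, Atf5 and Derl1 lay at 56.7 to 57.1 CPM per kilobase with ranges that overlapped, and so did Dnajc3, Cebpb, Xbp1 and Phgdh at 46.5 to 47.4. Dnajb11, at 53.9 (range 53.7 to 54.3), and Hyou1, at 50.5 (range 49.0 to 52.6), stood between these and did not overlap each other.

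At 54 h after Foxl2 siRNA, most of the listed genes of ER folding and degradation were called lower. In the other arm, Atf3 and Ddit3 were called higher and Nupr1, Cebpb and Ppp1r15a lower. Of the 23 chaperone and degradation genes 14 were called lower and 1 higher, beside 20.3% of all tested genes called lower and 18.5% called higher. Their median log2 change was -0.32, against -0.01 over all genes tested. The libraries of the groups did not overlap, with Foxl2 siRNA lower, for 17 of the 23 genes and for 27.9% of all genes. In bulk RNA a smaller share of cells that express these genes and less RNA per cell cannot be told apart.

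Among chaperones and folding enzymes 10 of 16 fell. Hspa5 (chr2:34771970-34777547, plus strand) stood at 1674, 1704 and 1711 CPM in the scrambled libraries and at 1211, 1314 and 1362 CPM with Foxl2 siRNA at 54 h. All 3 Foxl2 siRNA libraries lay below the scrambled ones, 1.31-fold lower in the fit (log2 change -0.39 ± 0.07, adjusted p = 0.000729). Pdia4, a disulfide isomerase, fell the most of this group, from 336, 338 and 339 CPM to 149, 240.4 and 159 CPM (log2 change -0.88 ± 0.17, adjusted p = 0.00143). Replicate 2 stood apart from the other Foxl2 siRNA libraries and was still below every scrambled library. Sdf2l1, a partner of the BiP chaperone complex, went from 43.7, 43.3 and 42.3 CPM to 23.1, 31.9 and 26.8 CPM (log2 change -0.66 ± 0.13, adjusted p = 0.00129). Hyou1, a nucleotide exchange factor of BiP, went from 389, 396 and 387 CPM to 231, 276 and 245 CPM (log2 change -0.64 ± 0.07, adjusted p = 1.72e-05). In both genes the groups did not overlap, and the scrambled libraries were close together. Dnajc3, a co-chaperone of BiP that also inhibits eIF2alpha kinases, went from 265, 255 and 263 CPM to 149, 214 and 149 CPM (log2 change -0.61 ± 0.13, adjusted p = 0.00285). Creld2, an ER-resident protein with isomerase activity, went from 49.1, 49.3 and 49.9 CPM to 28.2, 36.1 and 33.8 CPM (log2 change -0.59 ± 0.09, adjusted p = 0.000243). Smaller falls were called for Pdia3, Manf, Pdia6 and Canx, with log2 changes of -0.35, -0.34, -0.25 and -0.25. The Pdia6 call was lost without Foxl2 siRNA replicate 1 at 54 h (adjusted p = 0.0617).

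Hsp90b1 and Calr had log2 changes of -0.23 and -0.25 that were not called (adjusted p = 0.0755 and 0.0664), although all 3 Foxl2 siRNA libraries lay below the scrambled ones. In the annotation 15.7% of the exon bases of Hsp90b1 and 9.3% of those of Manf are shared with other genes. Hsp90b1 and Calr were called lower without Foxl2 siRNA replicate 2 at 54 h, the library with the most Foxl2 left at that time (log2 change -0.34, adjusted p = 0.00841 for Hsp90b1 and -0.34, adjusted p = 0.011 for Calr). The BiP co-chaperones Dnajb11 and Dnajb9 had log2 changes of -0.09 and 0.01 and were not called. In the other direction Ero1l, the oxidase that recharges disulfide isomerases, rose from 98.1, 105 and 105 CPM to 153, 125 and 149 CPM (log2 change 0.47 ± 0.08, adjusted p = 0.000426), with no overlap between groups. Its relative Ero1lb had a log2 change of 0.04 with a 95% interval of -0.17 to 0.24.

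Of the 7 degradation genes 4 fell and 0 rose. Derl3, a derlin of the retrotranslocation machinery, was scarce, at 11, 7.78 and 8.98 CPM in the scrambled libraries and 3.36, 4.78 and 2.23 CPM with Foxl2 siRNA (log2 change -1.41 ± 0.26, adjusted p = 0.00109), and rested on 1529 and 553 counts over the 3 libraries of each group. Edem1, which recognises mannose-trimmed glycoproteins bound for degradation, went from 171, 169 and 169 CPM to 104, 123 and 112 CPM (log2 change -0.59 ± 0.06, adjusted p = 8.61e-06). Sel1l, the scaffold of the main ER ubiquitin ligase complex, changed by -0.46 and Herpud1, a membrane adaptor of that complex, by -0.32 on the log2 scale, both called lower. The Herpud1 call was lost with the other groups left out of the fit (adjusted p = 0.0522). Syvn1, the ubiquitin ligase itself, and the derlins Derl1 and Derl2 were not called, with log2 changes of 0.07, 0.15 and 0.05; Derl1 was called higher without Foxl2 siRNA replicate 2 at 54 h (0.20, adjusted p = 0.0201). Within the ligase complex, then, the scaffold was called lower and the catalytic subunit was not; the difference between the subunits was not tested.

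Of the 4 sensors and their transcription factors 2 fell. Ern1, the kinase and ribonuclease IRE1, fell from 69.5, 71.8 and 75.8 CPM to 43.1, 38.7 and 54.6 CPM (log2 change -0.67 ± 0.16, adjusted p = 0.00464). Xbp1, whose mRNA that ribonuclease cuts, fell from 166, 166 and 169 CPM to 128, 137 and 138 CPM (log2 change -0.31 ± 0.07, adjusted p = 0.00422). For both genes the groups did not overlap. Atf6 had a log2 change of 0.20 (95% interval 0.00 to 0.40) and Eif2ak3, the kinase PERK, one of -0.08 (95% interval -0.20 to 0.05), and neither was called.

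In the Atf4 and Ddit3 arm 2 of 13 genes rose and 3 fell at 54 h, near the shares over all tested genes (18.5% higher and 20.3% lower), and the median log2 change was -0.01, as over all genes. Atf4 (chr15:80255184-80257541, plus strand) stood at 319.9, 298 and 305 CPM in the scrambled libraries and 319.7, 281 and 314 CPM with Foxl2 siRNA. The groups overlapped, and the 95% interval of the log2 change ran from -0.16 to 0.14 (adjusted p = 0.892). Atf3 (chr1:191170296-191218039, minus strand), a stress-induced transcription factor of the ATF family, rose from 1.98, 2.60 and 2.68 CPM to 8.80, 7.63 and 7.41 CPM. Its groups lay far apart although the gene was scarce, with 400 counts in the scrambled and 1238 in the Foxl2 siRNA libraries, and the fitted rise was 3.28-fold (log2 change 1.71 ± 0.14, adjusted p = 3.18e-06). Ddit3 (chr10:127290774-127296288, plus strand), which encodes the pro-apoptotic factor CHOP, rose from 16.8, 17.5 and 18.0 CPM to 28.3, 27.3 and 27.4 CPM (log2 change 0.67 ± 0.07, adjusted p = 2.49e-05). The 3 Foxl2 siRNA libraries lay close together for this gene. In the mm10 annotation 10.9% of the exon bases of Ddit3 are shared with other entries, among them a further Ddit3 entry and Mars on the other strand, and how strand was treated in counting is not known here.

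Nupr1 (chr7:126623249-126630861, minus strand) fell 4.55-fold, from 208, 325 and 269 CPM to 34.6, 94.7 and 46.5 CPM (log2 change -2.19 ± 0.41, adjusted p = 0.00111). The scrambled libraries varied widely here, yet the lowest of them was above the highest Foxl2 siRNA library. Cebpb, a C/EBP factor that dimerises with ATF proteins, fell from 79.9, 81.6 and 77.9 CPM to 52.8, 49.3 and 37.1 CPM (log2 change -0.78 ± 0.15, adjusted p = 0.00144), with 20.7% of its exon bases shared with Tmem189 on the other strand. Ppp1r15a, the inducible subunit that directs eIF2alpha dephosphorylation, fell by 0.35 on the log2 scale (adjusted p = 0.0022). Ppp1r15b, its constitutive counterpart, had a log2 change of 0.17 and was not called (adjusted p = 0.0675). It was called higher under upper-quartile scaling (adjusted p = 0.0295), in DESeq2 (0.0346), in voom (0.0106) and without Foxl2 siRNA replicate 2 at 54 h (0.0355).

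The other arm members were not called at 54 h. Over the 13 arm genes the groups did not overlap for 4 with Foxl2 siRNA higher and 5 with it lower. Over all genes the shares were 23.5% and 27.9%. Uncalled genes among these were Ppp1r15b and Chac1, higher, and Asns and Phgdh, lower. Trib3, a pseudokinase induced by both factors, stood at 8.35, 10.7 and 10.3 CPM in the scrambled libraries and 10.6, 10.4 and 13.3 CPM with Foxl2 siRNA, which overlap (log2 change 0.22 ± 0.29, adjusted p = 0.58). Chac1, which degrades glutathione, had a log2 change of 0.28, and Atf5, a relative of Atf4, one of 0.07. The amino acid synthesis genes Asns, Psat1 and Phgdh had log2 changes of -0.19, -0.46 and -0.30. Psat1, an enzyme of serine synthesis, was uneven between libraries: it stood at 164, 139.5 and 146 CPM in the scrambled libraries and 87.5, 161 and 78.1 CPM with Foxl2 siRNA. Without Foxl2 siRNA replicate 2, which lay within the range of the scrambled libraries, it was called lower (log2 change -0.85, adjusted p = 0.0112).

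**Figure D2:**
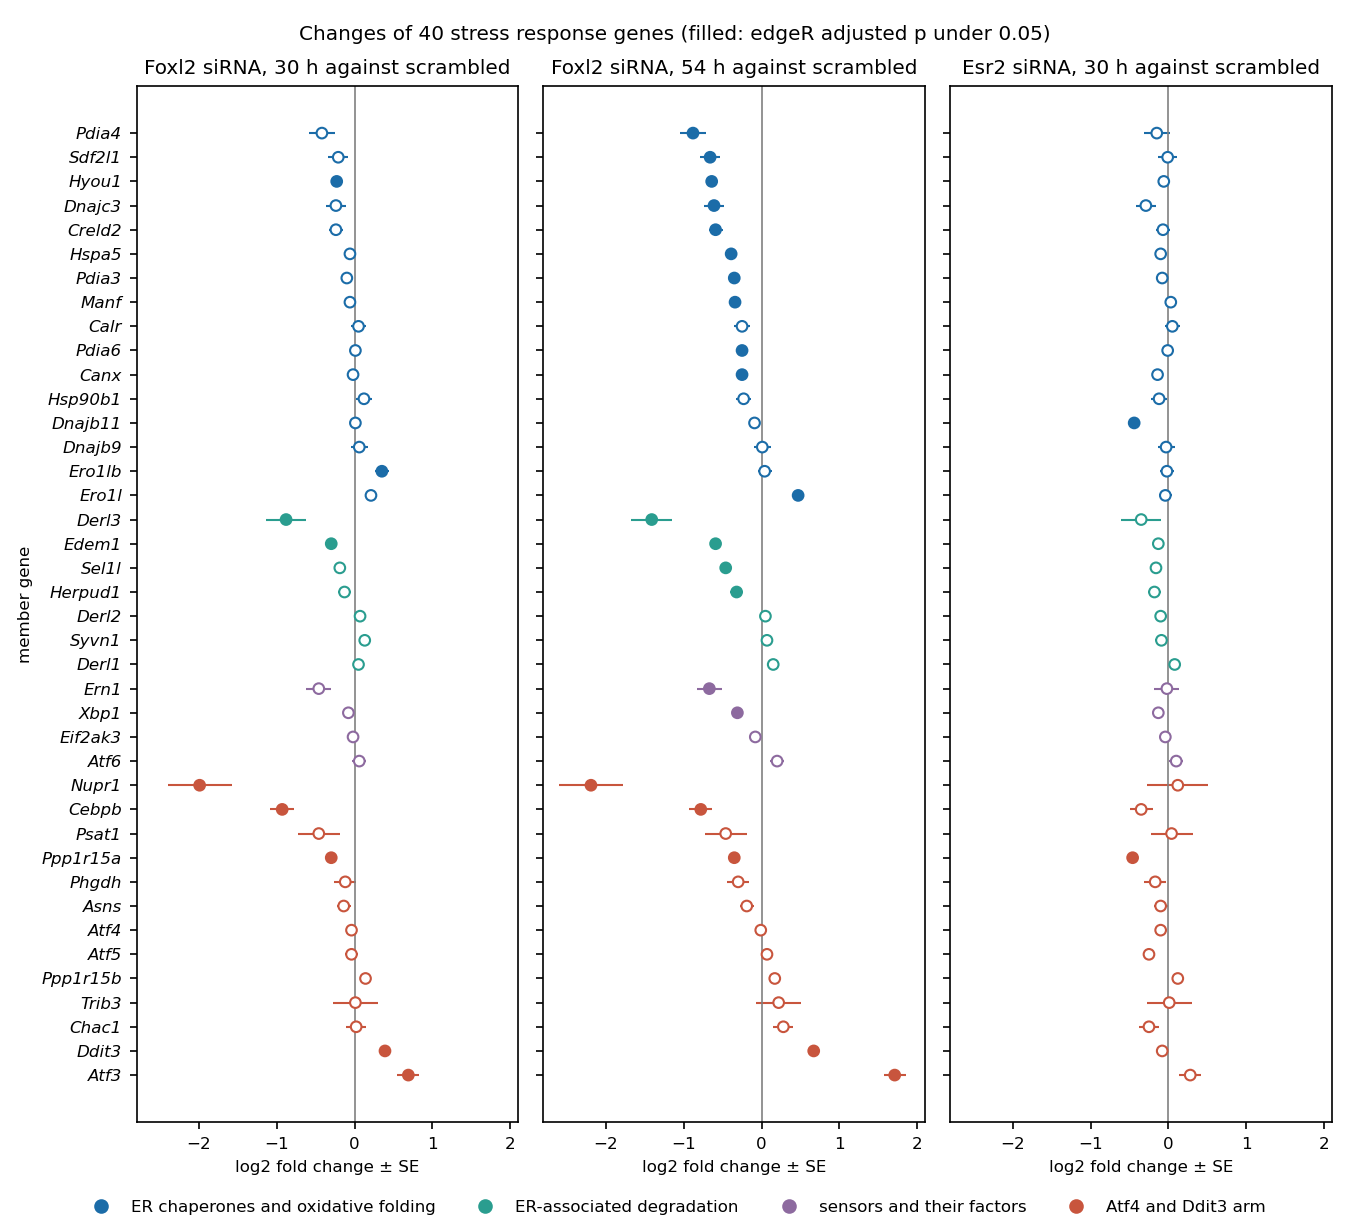
Log2 fold change ± SE of each of the 40 members in 3 comparisons, with rows grouped by role and ordered by the change at 54 h; filled points were called by edgeR. At 54 h the chaperone and degradation points lie mostly left of 0, with 14 of 23 called lower, while the arm spreads from -2.19 for Nupr1 to 1.71 for Atf3.

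Summed over the 23 chaperone and degradation genes, the scrambled libraries at 54 h held 9176, 9277 and 9256 CPM and the Foxl2 siRNA libraries 6935, 7909 and 7466 CPM. For the 13 arm genes the sums were 1431, 1458 and 1424 CPM and 1148, 1208 and 1090.2 CPM. Both sums were lower in every Foxl2 siRNA library. A sum weighs abundant genes most, and in the arm Nupr1, which fell, is one of them, while the median of the arm was near 0. The difference between the lists was described by counts and medians and was not tested. Of the promoter windows with an ER stress element of either form, 7 of 12 belonged to genes that were called lower at 54 h and 0 to genes called higher. Of the 8 chaperone and degradation windows with neither form, 5 belonged to genes called lower and 1 to a gene called higher. The 5 arm genes with a C/EBP-ATF element included 1 that rose (Atf3), 1 that fell (Nupr1) and 3 that were not called (Trib3, Chac1 and Asns). Of the 7 arm genes whose windows lacked it, 1 rose, 2 fell and 4 were not called. Over all tested genes 18.5% were called higher and 20.3% lower.

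At 30 h after Foxl2 siRNA fewer members were called. Of the 23 chaperone and degradation genes 1 was called higher and 3 lower, where 6.34% of all tested genes were higher and 6.65% lower. The arm had 2 genes higher and 3 lower of 13, and 0 of the 4 sensors were called. The median log2 changes were -0.06 for the chaperone and degradation genes, -0.04 for the arm and -0.01 for all genes. Without Foxl2 siRNA replicate 3 at 30 h the first of these medians was -0.12 and that of the arm -0.15, and without Foxl2 siRNA replicate 2 the first was 0.01. Over all genes the split of 945 higher and 991 lower turned to 1204 higher and 799 lower under upper-quartile scaling. With Foxl2 siRNA replicate 3 at 30 h left out, Pdia4, Creld2 and, in the arm, Psat1 were called lower as well (-0.62, adjusted p = 0.0225 for Pdia4 and -0.84, adjusted p = 0.0344 for Psat1) and Syvn1 higher, with 1432 genes higher and 1584 lower in all. Leaving out any of the other 5 libraries gave 437 to 571 genes higher and 461 to 600 lower. Ern1 was called lower in DESeq2 (-0.45, adjusted p = 0.0415) and without Foxl2 siRNA replicate 2 (-0.65, adjusted p = 0.0223).

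The arm genes called at 30 h were the same 5 as at 54 h. Atf3 went from 2.33, 3.04 and 2.90 CPM to 4.56, 4.36 and 4.45 CPM (log2 change 0.69 ± 0.14, adjusted p = 0.00622) and Ddit3 from 16.0, 17.2 and 17.6 CPM to 20.6, 23.2 and 23.0 CPM (log2 change 0.39 ± 0.07, adjusted p = 0.00396). In neither gene did the groups overlap. Nupr1 fell from 174, 247 and 216 CPM to 33.6, 39.8 and 86.3 CPM (log2 change -1.99 ± 0.41, adjusted p = 0.00698), and Cebpb from 75.7, 76.7 and 60.7 CPM to 35.6, 31.9 and 44.3 CPM (log2 change -0.93 ± 0.15, adjusted p = 0.00177). Ppp1r15a went from 82.7, 80.5 and 81.8 CPM to 66.6, 65.7 and 66.3 CPM (log2 change -0.30 ± 0.07, adjusted p = 0.0164). Of these genes Atf3, Ddit3, Nupr1 and Cebpb kept their call under all 13 alternatives tried, whereas Ppp1r15a lost it without scrambled replicate 1 or 3 or without Foxl2 siRNA replicate 1 or 2, with adjusted p up to 0.0698. Atf4, at 303, 282 and 304 CPM against 320.4, 285 and 306 CPM, was not called (log2 change -0.04 ± 0.07, adjusted p = 0.782), nor was Trib3, at 7.12, 10.8 and 11.5 CPM against 6.19, 12.3 and 10.8 CPM (log2 change 0.01 ± 0.29, adjusted p = 0.99).

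Among folding and degradation genes Edem1 was called lower at 30 h, from 176, 174 and 168 CPM to 138, 140.5 and 142 CPM (log2 change -0.30 ± 0.06, adjusted p = 0.00375), under all 13 alternatives too. Derl3 went from 5.96, 5.87 and 5.80 CPM to 3.29, 2.27 and 4.03 CPM (log2 change -0.88 ± 0.26, adjusted p = 0.0457) and Hyou1 from 354, 361 and 380.3 CPM to 307, 299.8 and 326 CPM (log2 change -0.23 ± 0.07, adjusted p = 0.0376). Ero1lb, the ERO1 oxidase that was not called at 54 h, rose from 19.6, 24.5 and 22.3 CPM to 28.0, 29.3 and 27.3 CPM (log2 change 0.35 ± 0.09, adjusted p = 0.029). These calls were less secure: Hyou1 kept its call under 5 of 13 alternatives, Derl3 under 6 and Ero1lb under 8, and each lost it without scrambled replicate 1 or 3 and without Foxl2 siRNA replicate 1 or 2. Over the alternatives the highest adjusted p was 0.166 for Hyou1, 0.167 for Derl3 and 0.104 for Ero1lb. Hspa5 stood at 1645, 1643 and 1671 CPM in the scrambled libraries and 1570.5, 1476 and 1708 CPM with Foxl2 siRNA at 30 h, and the groups overlapped (log2 change -0.06 ± 0.07, adjusted p = 0.61). Xbp1, at 150.5, 152 and 156 CPM and 145, 127 and 160.4 CPM, overlapped as well (log2 change -0.08 ± 0.07, adjusted p = 0.509).

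**Figure D3:**
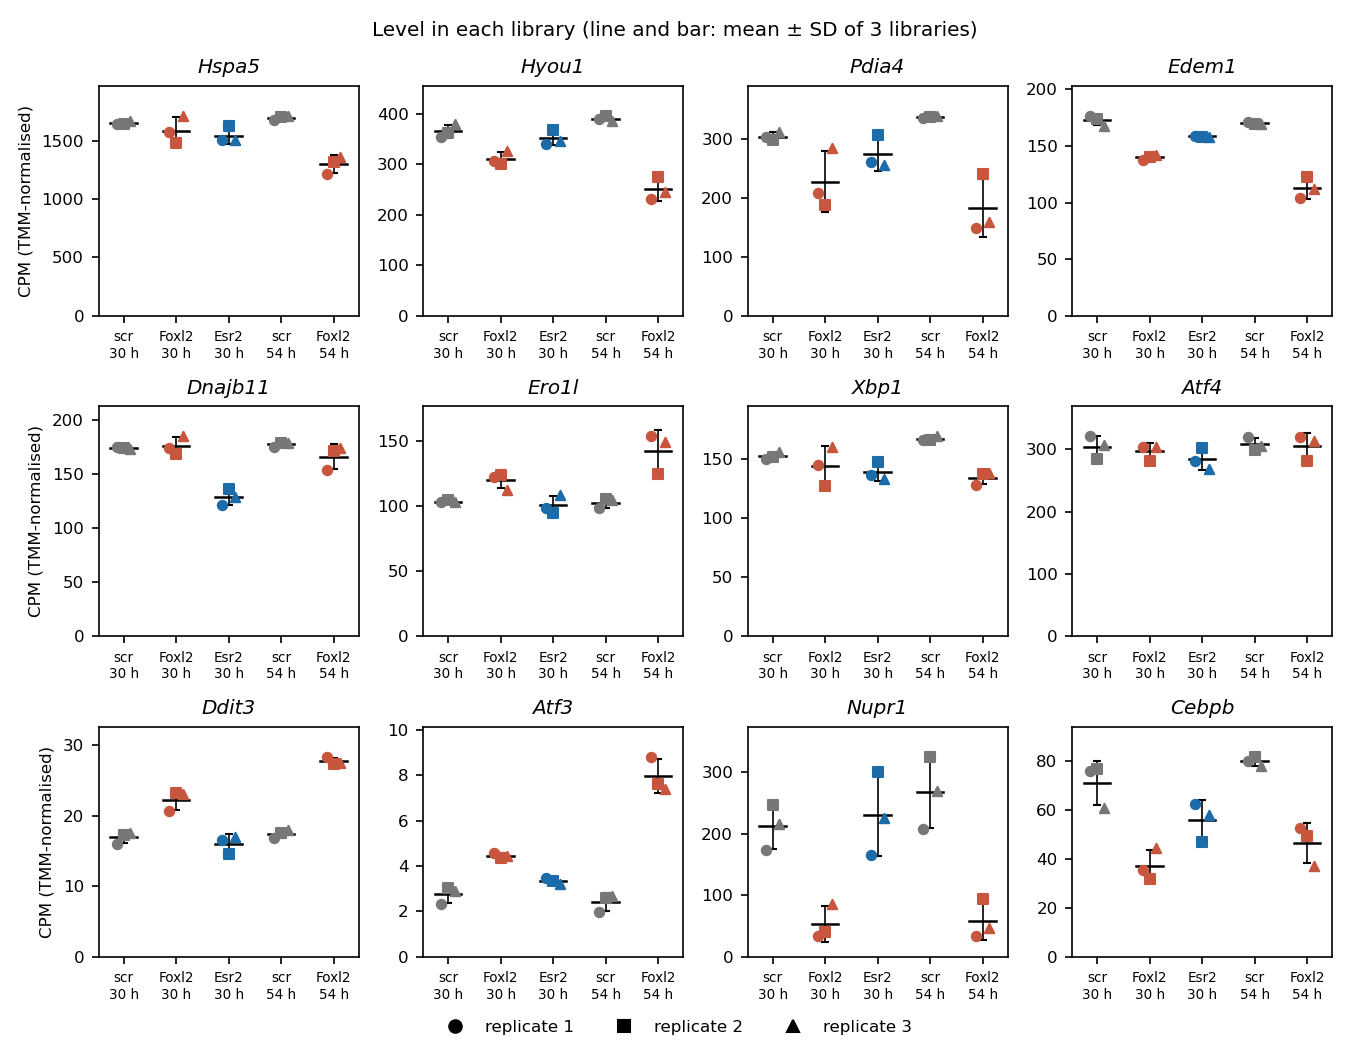
Levels of 12 members in each of the 15 libraries, in TMM-normalised CPM on linear axes from 0; symbols are replicates, and lines with bars are the mean ± SD of 3 libraries. After Foxl2 siRNA at 54 h Atf3 lies at 7.41 to 8.80 CPM and Ddit3 at 27.3 to 28.3 CPM, whereas Pdia4 spreads from 149 to 240.4 CPM in the same libraries.

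The Foxl2 siRNA changes at the 2 times were then compared. Of the 9 members called at 30 h, 8 were called in the same direction at 54 h, which is 88.9% of the earlier and 36.4% of the 22 later calls; over all genes the shares were 94.1% and 31.5%. In 7 of those 8 genes the change was larger at 54 h. The same was not counted for the 1822 genes called at both times over all genes, so 7 of 8 has no background. The difference between the changes at 54 h and 30 h, tested as an interaction, was called for 0 of the 40 members, and for 0.00671% of all genes upward and 0% downward. At an unadjusted p under 0.05 the interaction held for 16 of 40 members, 13 of them among the 23 chaperone and degradation genes, and for 10.1% of all genes. The median difference was -0.29 for the chaperone and degradation genes, 0.03 for the arm and 0.00 for all genes tested. Without Foxl2 siRNA replicate 3 at 30 h the median was 0.29 for the arm and -0.21 for the chaperone and degradation genes. Atf3 had the lowest adjusted p (difference 1.02 ± 0.19, adjusted p = 0.128), followed by Hyou1 (difference -0.41 ± 0.09, adjusted p = 0.141). For Hspa5 the difference was -0.33 ± 0.10 with a 95% interval of -0.54 to -0.12 (adjusted p = 0.26).

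This outcome depended on the test and on a single library. DESeq2 called the interaction for Atf3, Hyou1, Hspa5 and Edem1 (adjusted p = 0.000525, 0.00375, 0.0217 and 0.0217), and limma's voom with quality weights for 8 chaperone and degradation genes downward, Ero1l upward, and Atf3 and Ddit3 upward. In edgeR, without Foxl2 siRNA replicate 2 at 54 h, 6 chaperone and degradation genes were called downward (Pdia4, Edem1, Hyou1, Hsp90b1, Dnajc3 and Creld2), and Ero1l and Atf3 upward. Over all genes the same omission took the interaction from 1 gene upward and 0 downward to 325 upward and 579 downward. With all libraries kept, DESeq2 called 112 genes upward and 86 downward, and voom 487 upward and 569 downward.

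The libraries with the most Foxl2 left also lay nearest to the scrambled level for many members. At 54 h replicate 2 was the nearest to the scrambled mean for 12 of the 15 called chaperone and degradation genes, beside 63.5% of all called genes. At 30 h replicate 3 was the nearest for 4 of 4, beside 65.6% of all called genes. Of the 5 called arm genes those libraries were the nearest for 2 at 54 h (Nupr1 and Ddit3) and 2 at 30 h (Nupr1 and Cebpb). The Ddit3 libraries at 54 h spanned little, at 28.3, 27.3 and 27.4 CPM, while Foxl2 stood at 33.6, 57.5 and 25.2 CPM. With both of those libraries left out, a choice made after seeing the data, 8 chaperone and degradation genes were lower and 3 higher at 30 h, and 16 lower and 2 higher at 54 h. The arm then had 3 higher and 4 lower at either time. Calls rose over all 15062 genes tested as well, to 2085 higher and 2492 lower at 30 h. At 54 h they were 3446 higher and 3851 lower. Surface epithelium markers moved with the same contrast: 8 of the 9 listed were in the files, none was at 0, 6 of the 8 were called higher at 54 h and 3 at 30 h, and their summed level was 299 to 376 CPM with scrambled siRNA and 722 to 737 CPM with Foxl2 siRNA at 54 h, and 341 to 379.5 CPM and 452 to 468 CPM at 30 h. Of the 14 granulosa markers, 3 were called higher and 7 lower at 54 h, and their summed level was 3471 to 4597 CPM against 4153 to 4287 CPM with scrambled siRNA. The genes called lower include Foxl2, the siRNA target, and Esr2. Over all tested genes 18.5% were called higher and 20.3% lower at 54 h, and 6.34% and 6.65% at 30 h. The part of the marker differences in the changes above was not tested.

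**Figure D4:**
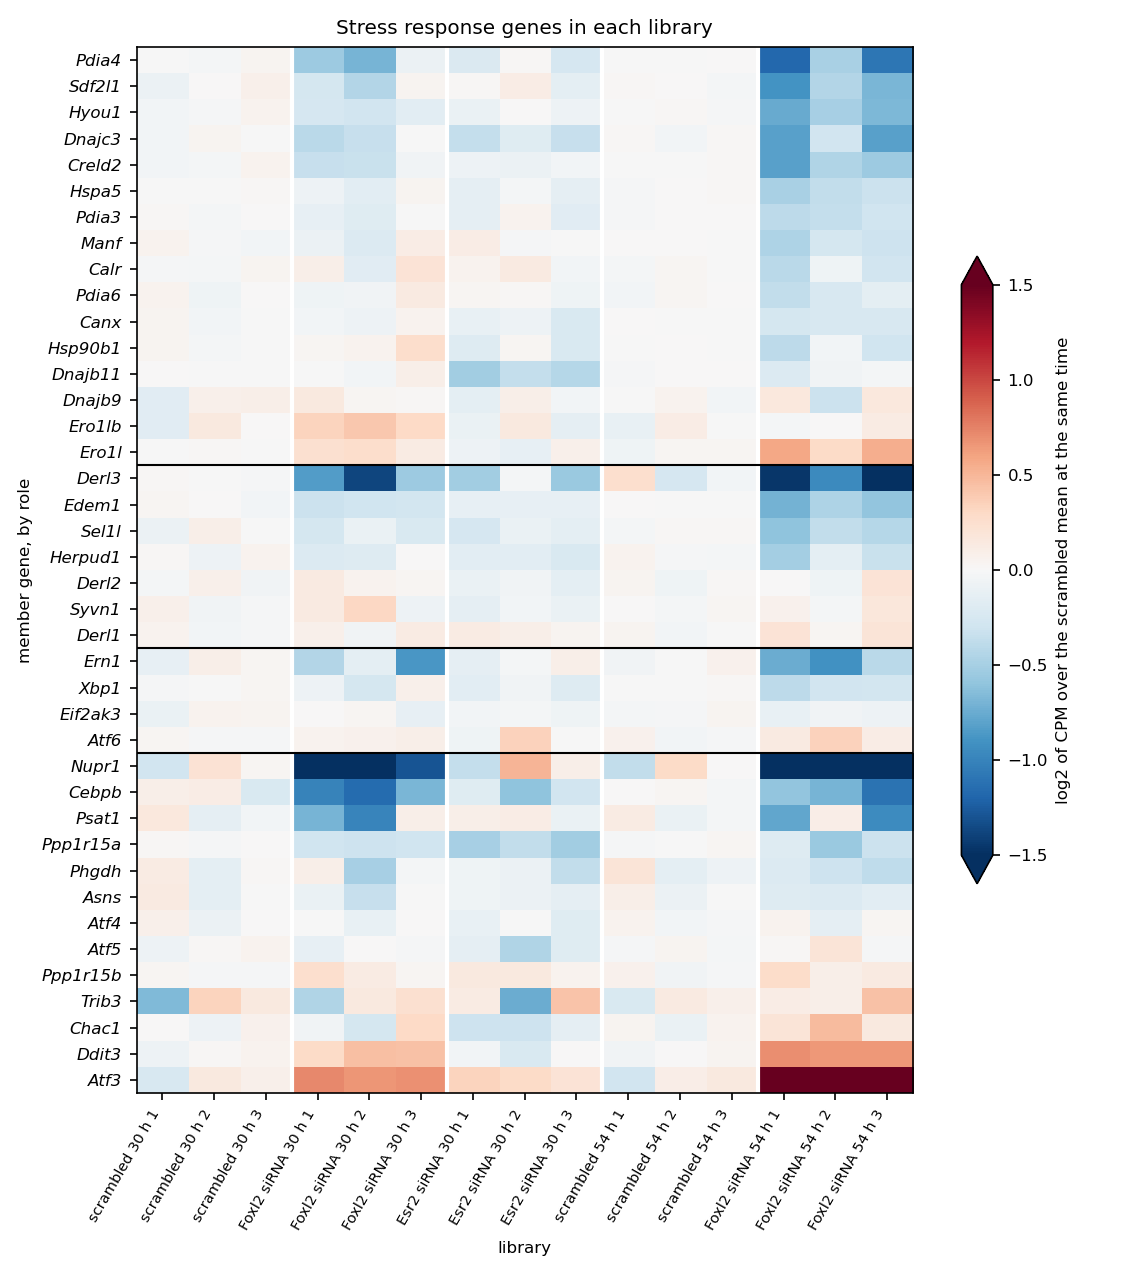
Log2 of the CPM of each member (rows, grouped by role) in each library (columns) over the mean of the scrambled libraries at the same time; the scale stops at -1.5 and 1.5. After Foxl2 siRNA at 54 h the Pdia4 row is paler in replicate 2, at 240.4 CPM, than in replicates 1 and 3, at 149 and 159 CPM, while the Hspa5 row is palest in replicate 3, at 1362 CPM against 1211 and 1314 CPM.

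The Esr2 siRNA contrast, which shares its scrambled libraries with the Foxl2 siRNA contrast at 30 h, left most of the 40 members uncalled, with 2 lower and 0 higher, where 3.11% of all tested genes were called lower and 1.13% higher. The lower genes were Dnajb11 among the chaperones and Ppp1r15a in the arm. Dnajb11, an abundant co-chaperone of BiP, stood at 176, 174 and 174 CPM in the scrambled libraries and 121, 136 and 129 CPM with Esr2 siRNA (log2 change -0.44 ± 0.06, adjusted p = 0.000941). Ppp1r15a stood at 82.7, 80.5 and 81.8 CPM and 57.6, 63.4 and 57.1 CPM (log2 change -0.46 ± 0.07, adjusted p = 0.00313). In both genes the groups lay well apart, and both calls were kept under all 12 alternatives tried for this contrast. Small negative changes prevailed among the chaperone and degradation genes. With Dnajb11 included, 20 of 23 had a negative log2 change, beside 51.2% of all genes. The groups did not overlap, with Esr2 siRNA lower, for 9 of the 23 and for 15.2% of all genes. Their median was -0.09, against -0.10 for the arm and -0.01 for all genes. Granulosa markers summed to 3141 to 3461 CPM with Esr2 siRNA and 4042 to 4152 CPM with scrambled siRNA, and the part of that difference was not tested. Esr2 itself is among these markers.

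Hspa5 stood at 1502, 1622 and 1502 CPM after Esr2 siRNA (log2 change -0.10 ± 0.07, adjusted p = 0.508), below every scrambled library, and Xbp1 at 137, 148 and 134 CPM (log2 change -0.13 ± 0.07, adjusted p = 0.38). Neither was called. In the arm, Atf4 stood at 281, 303 and 269 CPM (log2 change -0.10 ± 0.07, adjusted p = 0.535), Ddit3 at 16.5, 14.5 and 17.0 CPM (log2 change -0.08 ± 0.07, adjusted p = 0.639), Atf3 at 3.48, 3.36 and 3.19 CPM (log2 change 0.28 ± 0.14, adjusted p = 0.326) and Trib3 at 10.6, 5.85 and 13.1 CPM (log2 change 0.01 ± 0.29, adjusted p = 0.991). All 3 Atf3 libraries lay above the scrambled ones, the other 3 genes overlapped with them, and none of these 4 genes was called. Voom called 12 of the 23 chaperone and degradation genes lower in this contrast, and in the arm 4 genes lower and Ppp1r15b higher. Over all 14907 genes tested, voom called 2148 higher and 2583 lower, far more than edgeR did. Over all genes, edgeR's split of 168 higher and 463 lower was 250 and 396 under upper-quartile scaling and 408 and 701 in DESeq2, and 279 and 751 without Esr2 siRNA replicate 2.

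The siRNAs were also compared directly at 30 h; this contrast shares its Foxl2 and Esr2 siRNA libraries with those above. With Foxl2 siRNA, 3 chaperone genes were higher and 1 degradation gene lower, and 2 arm genes were higher and 2 lower, beside 11.1% of all genes higher and 9.34% lower. Dnajb11, at 174, 169 and 185 CPM with Foxl2 siRNA, and Ddit3 were higher under all 13 alternatives (log2 differences 0.45 ± 0.06 and 0.48 ± 0.07, adjusted p = 0.000241 and 0.000696). Nupr1 and Cebpb were lower with Foxl2 siRNA than with Esr2 siRNA (log2 differences -2.12 ± 0.41 and -0.58 ± 0.15, adjusted p = 0.00293 and 0.0167). Ero1lb, Ero1l and Atf3 were higher and Edem1 lower, with adjusted p = 0.0146, 0.0355, 0.0484 and 0.0401. Those 4 calls and that of Cebpb were lost without Foxl2 siRNA replicate 2 or without Esr2 siRNA replicate 1, with adjusted p up to 0.136, and Atf3 kept its call under 2 of 13 alternatives.

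Time in culture alone gave no called member: from 30 h to 54 h with scrambled siRNA, 0 of 40 were called by edgeR, with 0% of all genes higher and 0.00671% lower. That test was unpaired. With the replicate number as a block over all 15 libraries, 0 members were called as well. Among all genes 1 was then higher and 2 lower, against 0 and 1. A paired test of the scrambled libraries alone was not run. At an unadjusted p under 0.05 there were 3 of 40 members and 4.88% of all genes. DESeq2 called 0 members, and voom called 7 members higher (Pdia3, Derl3, Sel1l, Xbp1, Ern1, Cebpb and Atf5) and 1 lower (Ppp1r15a). Over all genes DESeq2 called 30 higher and 36 lower, and voom 1400 higher and 1293 lower. The chaperone level nonetheless did not overlap between the times for 11 of the 23 chaperone and degradation genes, all higher at 54 h, beside 11.5% of all genes. Hspa5 was 1643 to 1671 CPM at 30 h and 1674 to 1711 CPM at 54 h, a log2 change of 0.04 ± 0.07. Atf4, Ddit3, Atf3, Trib3 and Xbp1 had log2 changes of 0.02, 0.04, -0.19, 0.00 and 0.13.

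Other genes of the same and of neighbouring pathways were read at 54 h after Foxl2 siRNA from lists that hold none of the 40 members, and their counts stand beside 20.3% of all genes called lower and 18.5% called higher. Of 43 tested genes of ER folding, translocation and degradation, 17 were lower and 5 higher, with a median log2 change of -0.10. The called genes with the largest changes were Pdia5, a disulfide isomerase (0.69 ± 0.19), Uggt1, the folding sensor of the calnexin cycle (-0.65 ± 0.13), Spcs2, a signal peptidase subunit (-0.60 ± 0.06), Txndc11 (-0.49 ± 0.15) and Sec61b, a subunit of the translocon (-0.48 ± 0.13). Pdia5 rose and the other 4 fell. Of 45 tested genes of the integrated stress response, 16 were lower and 8 higher, with a median of -0.03. Here the largest changes were in Cbs, an enzyme of transsulfuration (-2.86 ± 0.71), Nfil3, a bZIP transcription factor (1.49 ± 0.16), Slc3a2, the heavy chain of amino acid transporters (-1.30 ± 0.12), Pck2, the mitochondrial PEP carboxykinase (-1.20 ± 0.14), and Ddit4, an inhibitor of mTORC1 (1.02 ± 0.18). Of these named genes, Nfil3 and Ddit4 rose while Cbs, Slc3a2 and Pck2 fell. The 8 of 45 genes called higher were near the share over all genes, whereas the 16 of 45 called lower were above it.

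Of 17 heat shock genes of the cytosol, 7 were lower and 4 higher, with a median of -0.17. Cryab, Hspb8 and Hspb1, small heat shock proteins, and Bag3, their co-chaperone, rose by 1.67, 1.0, 0.63 and 0.50 on the log2 scale, and Hsph1, an exchange factor of Hsp70, fell (-1.11 ± 0.10). Of 10 mitochondrial chaperones and proteases, Hspd1 and Hspe1, which form the matrix chaperonin, fell (-0.53 ± 0.09 and -0.46 ± 0.13), the protease gene Yme1l1 rose (0.28 ± 0.08), and the median was 0.02.

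The same lists held fewer calls at 30 h. With Foxl2 siRNA, beside 6.65% of all genes lower and 6.34% higher, 6 of the 43 further ER genes were lower and 0 higher, 6 of the 45 integrated stress response genes lower and 2 higher, 4 of the 17 cytosolic heat shock genes lower and 1 higher, and 0 of the 10 mitochondrial genes called. With Esr2 siRNA, beside 3.11% of all genes lower and 1.13% higher, the genes called lower were 3, 4, 1 and 0 in the same order, and 0 were higher in any of them.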

How the data were processed

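RNA of 15 libraries was analysed from the authors' deposited tables of whole-number read counts per gene, not normalized. Per the submitters' processing notes the tools were bcl2fastq 2.15.0, TopHat2 and DESeq2, with build mm10. No source used here names how reads were counted, against which annotation or with which strand setting. Per the labels' protocols a stranded mRNA kit (1.3 µg of RNA input) and single 75-base reads were used. ERCC spike-ins (92 of 24582 features, 0.105% to 0.352% of counts) were left out. In 1 library 15 symbols turned into dates were restored from the gene order shared by the others.

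Counts were fitted with edgeR 4.0.16 in R 4.3.3: 5 group means over all 15 libraries, TMM scaling, edgeR's expression filter, and Benjamini-Hochberg adjustment over 14907 genes, with 10 residual degrees of freedom. The standard error was derived from the F statistic. The code was tested on simulated counts. Alternatives were upper-quartile scaling, DESeq2 1.42.0, voom with quality weights (limma 3.58.1), no filter, only the groups compared, the replicate block, leaving out each library, and, added after seeing the data, leaving out both Foxl2 siRNA libraries with the most Foxl2. Same-numbered scrambled libraries at 30 h and 54 h deviated together from their group means (r = 0.63, 0.49 and 0.14 for replicates 1, 2 and 3). The labels state no pairing, and the reported test of that contrast was unpaired. The replicate block was fitted over all 15 libraries, and a paired test of the scrambled libraries alone was not run. Exon lengths and gene coordinates are from GENCODE on GRCm38 (mm10).

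The 40 members and the lists were chosen with earlier results of these data known. Full values are given for Hspa5, Xbp1, Atf4, Ddit3, Atf3 and Trib3 and for up to 12 called members per contrast by size of change, and up to 5 called genes are named from each other list. Further members were named after their values were seen.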

Additional observations from a re-analysis of the deposited data

How the results depend on the processing

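At 54 h after Foxl2 siRNA, 20 of the 22 called members kept their call under all 13 alternatives, and the chaperone and degradation genes called lower ranged from 13 to 16. Their median log2 change ranged from -0.35 to -0.24, and that of the arm from -0.05 to 0.03. At 30 h these medians ranged from -0.12 to 0.01 and from -0.15 to -0.01, for the interaction from -0.32 to -0.21 and from -0.01 to 0.29, and after Esr2 siRNA from -0.12 to -0.06 and from -0.14 to -0.06. No called member changed direction. The count called higher at 54 h, 1 as reported, was 2 under upper-quartile scaling, DESeq2, voom and the replicate block (Derl1), 2 with both high-Foxl2 libraries left out, and 1 to 2 with each library left out. At 30 h the chaperone and degradation genes called higher, 1 as reported, were 3 in voom, 0 with only the groups compared, 3 with both high-Foxl2 libraries left out and 0 to 2 with each library left out; those called lower, 3 as reported, were 9 in voom, 1 without the filter, 8 with both libraries left out and 1 to 5 with each library left out. After Esr2 siRNA voom gave 12 chaperone and degradation genes lower and, in the arm, 1 higher and 4 lower, and the fit of only the groups compared gave 2 chaperone and degradation genes lower. Between times with scrambled siRNA voom gave 3 chaperone and degradation genes and 2 arm genes higher and 1 arm gene lower. For the interaction the chaperone and degradation genes called lower were 3 in DESeq2, 8 in voom, 4 with both libraries left out and 0 to 6 with each library left out; those called higher were 1 in voom and 0 to 1 with each library left out; arm genes higher were 1 in DESeq2, 2 in voom, 1 with both libraries left out and 0 to 1 with each library left out. Voom called more of all genes too, 1400 higher and 1293 lower between the scrambled times, where edgeR called 0 and 1; the cause was not tested. Over all genes, leaving out Foxl2 siRNA replicate 3 at 30 h gave 1432 higher and 1584 lower against 945 and 991, and leaving out a single other library at 30 h gave no fewer than 437 higher and 461 lower. For Esr2 siRNA, leaving out single libraries gave 34 to 279 higher and 202 to 751 lower against 168 and 463. Further counts that differed by over 1.5 times included, higher and lower, 2489 and 2763 in voom and 2085 and 2492 with both high-Foxl2 libraries left out for Foxl2 siRNA at 30 h; 2148 and 2583 in voom and 451 and 680 with only the groups compared for Esr2 siRNA; 30 and 36 in DESeq2 and 110 and 96 with only the groups compared between the scrambled times; 112 and 86 in DESeq2, 487 and 569 in voom, 301 and 535 with both libraries left out, 325 and 579 without Foxl2 siRNA replicate 2 at 54 h and 13 and 3 without its replicate 3 for the interaction; and 2769 and 2677 in voom, 935 and 690 with only the groups compared, 2451 and 2682 with both libraries left out, 974 and 793 without Esr2 siRNA replicate 1 and 1105 and 893 without its replicate 3 for Foxl2 against Esr2 siRNA, where edgeR gave 1649 and 1393.

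Replicate numbers are shared by the groups, but the labels do not say that they mark a shared animal or day. Deviations of same-numbered libraries from their group means correlated at -0.49 to 0.66, over 0.1 in 15 of 30 pairs, and 14 of 30 correlated best with their own number. The reported tests did not pair the libraries, since the labels state no pairing. Same-numbered scrambled and Foxl2 siRNA libraries correlated at 0.49, 0.44 and 0.07 at 30 h for replicates 1, 2 and 3. At 54 h the values were 0.4, 0.02 and 0.14. For these contrasts pairing entered only through the replicate block fitted over all libraries. Between the scrambled times every pair correlated over 0.1, and there too pairing entered only through the block fitted over all libraries. With the replicate block, 14 chaperone and degradation genes were lower and 2 higher at 54 h, and Ppp1r15b was called higher (adjusted p = 0.0301). At 30 h the call of Derl3 was lost with the block and Sel1l was added (log2 change -0.19, adjusted p = 0.0278), and the call of Atf3 between Foxl2 and Esr2 siRNA was lost. No other call of a member changed beside these and Derl1. With 3 libraries a group, rank or permutation tests were not used. The precision of scarce members such as Atf3 is limited by its 400 counts over the scrambled libraries at 54 h.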
